A study of Mus musculus with 20 samples.

Results

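Of 20 mouse RNA-seq libraries of the BNST, the bed nucleus of the stria terminalis, 7 held more than 100 CPM of Ttr, the transcript of transthyretin. CPM was 1000000 times the count of a gene over the total count of its library. The BNST is a forebrain nucleus beside the ventricles that joins the amygdala to the hypothalamus. The 7 libraries were chosen by that measured value of Ttr and not by any label, so the level of Ttr is given as a description, and every other gene was compared between the 7 libraries and the other 13 with the group as a covariate. The lowest of the 7 held 143.6 CPM and the highest of the 13 held 58.16 CPM, so no library lay between these values. The 4 labelled groups were female control, male control, susceptible female and susceptible male mice, with 5 libraries each. All were BNST tissue, and the susceptible mice came from a model of anxiety made by chronic restraint stress, in which mice are held confined repeatedly. The sources used here give neither strain nor age, and sex stands in the labels as the genotype. No label ties a library to its own animal, so p-values rest on the spread among libraries, and that spread may be technical. Total counts ran from 14637636 to 17862840 per library, so 1 CPM corresponds to 14.6 to 17.9 counts.

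The choroid plexus is a fold of vascular tissue covered by epithelium that hangs in the brain ventricles and secretes the cerebrospinal fluid. Its epithelial cells move bicarbonate, chloride, sodium, potassium and water into the ventricle, carry folate and other nutrients across, and are sealed by tight junctions that form the barrier between blood and cerebrospinal fluid. They secrete transthyretin, a carrier of thyroid hormone and retinol, and Ttr is among the most abundant of their transcripts. The BNST borders the lateral ventricle, and the epithelium is not part of it.

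Ttr (chr18:20665280-20674321, plus strand, GRCm38) reached 1659 and 1952 CPM in female control libraries 2 and 3, 1723 CPM in male control library 5, 551 and 2005 CPM in susceptible female libraries 1 and 3, and 144 and 1423 CPM in susceptible male libraries 2 and 5. The other 13 libraries lay between 7.05 and 58.2 CPM. Above 1000 CPM there were 5 of the 7, and the other 2 lay well below it. Folr1 (chr7:101858331-101870788, minus strand), the folate receptor of the choroid plexus epithelium and the second marker of the tissue, was at 15.5, 19.4, 14.7, 4.97, 20.9, 0.857 and 12.8 CPM in the same 7 libraries in that order. In the 13 it lay between 0.168 and 1.39 CPM. Folr1 therefore separated 6 of the 7 libraries from the rest, whereas susceptible male library 2, with 13 counts of Folr1, lay inside the range of the 13, so Folr1 does not set that library apart. Results below include that library, and some are also given without it.

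**Figure D1:**
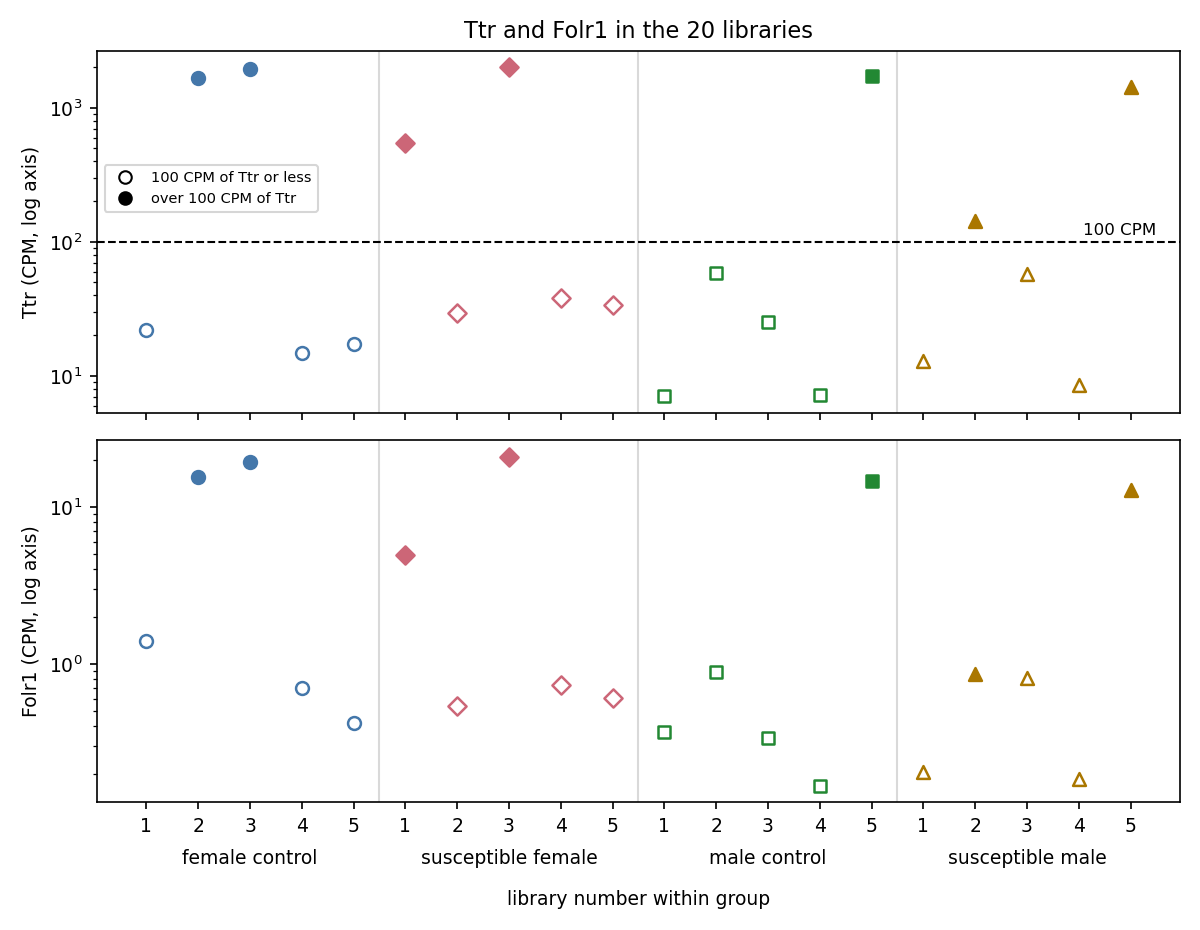
Ttr (upper panel) and Folr1 (lower panel) in CPM, on log axes, in each of the 20 libraries, which stand by group and library number; filled symbols are the 7 libraries over 100 CPM of Ttr and the dashed line marks 100 CPM. The 6 filled symbols other than susceptible male library 2 stand above every open symbol in both panels.

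Libraries over 100 CPM of Ttr were found in all 4 groups. They were 1 of the 5 male controls and 2 of the 5 in each other group. By stress, 4 of 10 susceptible and 3 of 10 control libraries were over 100 CPM.

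With the group as covariate, 90 of 14883 genes tested, or 0.605%, were higher in the 7 libraries and 15, or 0.101%, were lower, by edgeR's quasi-likelihood test with a Benjamini-Hochberg adjusted p below 0.05. Because Ttr and the other genes were read from the same libraries, these calls describe which transcripts went with Ttr and are not an effect of a treatment. The median log2 fold change over all genes tested was -0.004. Of the 90 genes, 34 had a log2 fold change above 2, 30 between 1 and 2 and 26 below 1. All 90 were higher within each of the 4 groups on their mean log2 CPM. The 90 were called from these same libraries, so this is a description and no separate support. In male controls it rests on 1 library over 100 CPM. The 15 lower genes ranged from -0.60 to -0.21 on the log2 scale. The count of higher genes was 144 without susceptible male library 2, 137 without susceptible female library 1, and 266 without both, and it was 9 without the 5 libraries that held over 1 CPM of Pmch, 3 of which are among the 7.

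The 7 libraries did not carry these genes alike. Of the 90 higher genes, 88 were above all 13 other libraries in female control library 2, 85 in female control library 3, 83 in male control library 5, 85 in susceptible female library 3 and 81 in susceptible male library 5. In susceptible female library 1, with 551 CPM of Ttr, 52 of the 90 were above all 13. In susceptible male library 2 only 18 were, although 70 of the 90 were above the median of the 13. The 90 were called because these libraries were high, so the counts only compare the 7 libraries with one another. No share over all genes was taken for single libraries. Over all 14883 genes, 12, or 0.0806%, were higher in each of the 7 libraries than in any of the 13. They were Slc4a5, Tmem72, Cldn2, F5, Kl, Trpv4, Steap1, Sostdc1, Prr32, Tmprss11a, Zfp185 and Vamp8. Prr32, Tmprss11a, Zfp185 and Vamp8 are not in the choroid plexus lists used below. Lower in each of the 7 than in any of the 13 was 1 gene, Ccdc159 (0.00672%). Without susceptible male library 2 the numbers were 47, or 0.316%, and 2, or 0.0134%.

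Genes known from the choroid plexus epithelium were followed in 8 lists by role, 141 genes in all, of which 136 were tested. In these, 41 genes were higher, none was lower and 109 of the 136 estimates were above 0, with a median log2 fold change of 0.32, beside 0.605% of all genes higher and the median of -0.004. The number of higher genes was 48 without susceptible male library 2 and 56 without both libraries between 100 and 1000 CPM. The remaining 49 of the 90 higher genes stood in none of the lists, including those of 13 other cell types and regions. Bulk libraries such as these cannot tell more cells of a type from more RNA per cell.

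**Figure D2:**
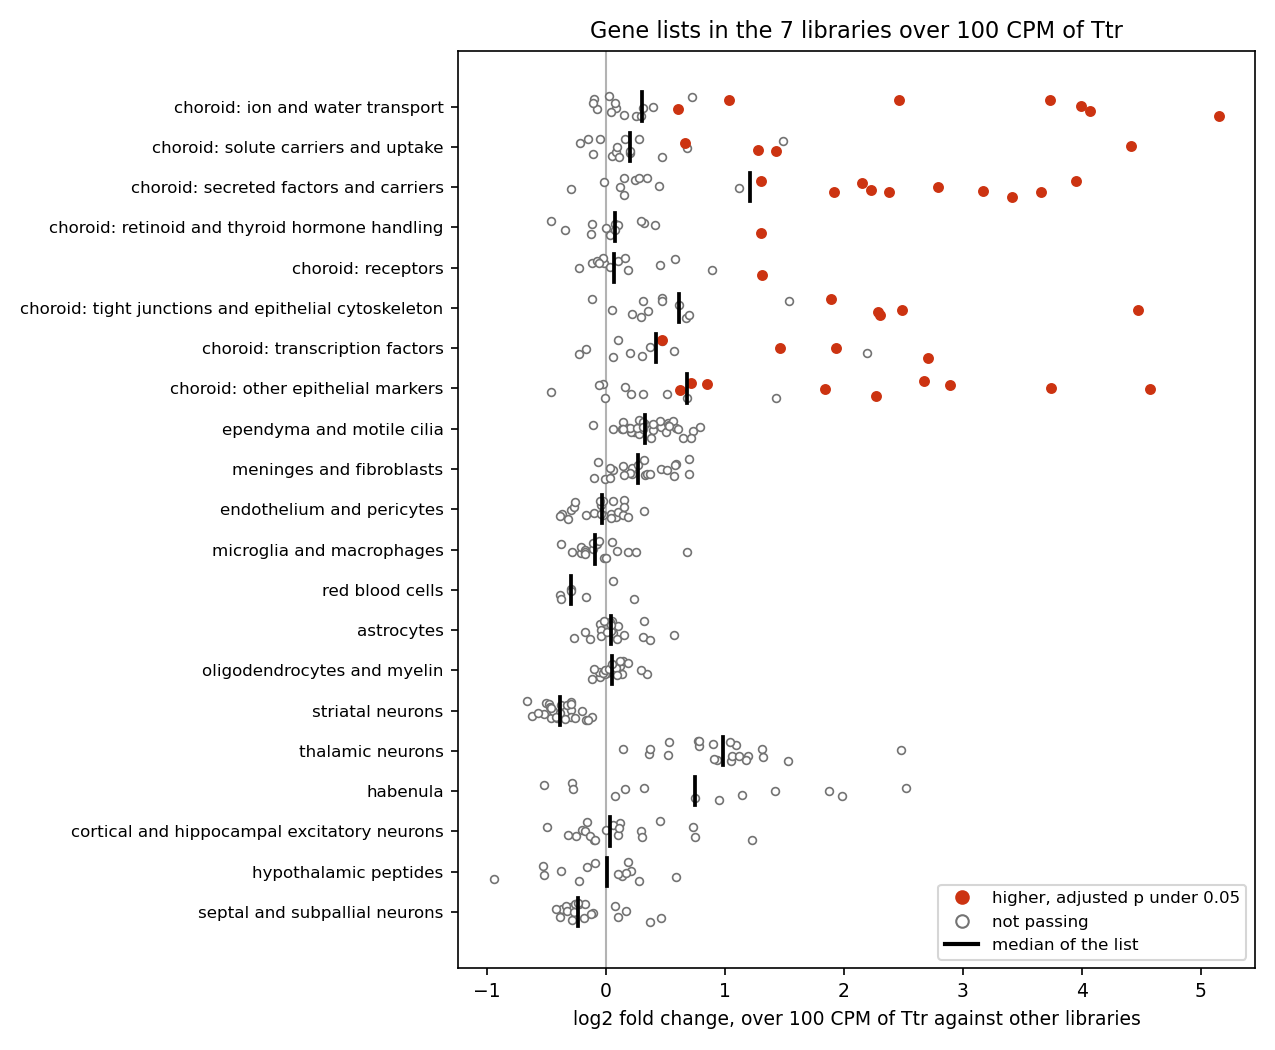
Log2 fold change of each tested gene of 21 lists in the 7 libraries over 100 CPM of Ttr against the other 13 libraries (edgeR, group as covariate, Ttr left out); red points passed an adjusted p of 0.05, open points did not, and black bars are the median of each list. The red points stand in the 8 choroid plexus lists, and the thalamic and striatal lists lie on opposite sides of 0 with no red point.

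Among the 20 channels, pumps and exchangers for ions and water, 7 were higher and none lower, with 17 estimates above 0 and a median of 0.30. Slc4a5 (chr6:83219828-83304945, plus strand), the sodium bicarbonate cotransporter of the ventricular face of the epithelium, ranged from 1.71 to 25.7 CPM with a median of 22 in the 7 libraries. Its highest value in the 13 was 1.07 CPM. The groups did not overlap, and its log2 fold change of 5.15 ± 0.48 (SE, adjusted p = 1.94e-05) was the largest of the genes named besides Ttr. Kcnj13, an inward rectifier potassium channel, ranged from 0.725 to 9.37 CPM against at most 0.785 CPM, with a log2 fold change of 3.99 ± 0.36. Kcne2, a potassium channel subunit, ranged from 0.857 to 18.7 CPM against at most 0.875 CPM, with a log2 fold change of 4.07 ± 0.46. For both, susceptible male library 2 was the only one of the 7 inside the range of the 13. Aqp1, the water channel of the epithelium, rose by 3.73 ± 0.47, and Trpv4, a cation channel that responds to osmolarity, by 2.46 ± 0.28. Clic6, a chloride channel protein, was already at 18.3 to 44.7 CPM in the 13 libraries, and its 39.9 to 82.2 CPM in the 7 gave the smaller log2 fold change of 1.03 ± 0.15 (adjusted p = 0.00118).

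Of 19 carriers for solutes, 4 were higher and none lower, with 15 estimates above 0 and a median of 0.20. Folr1 stood first, with a log2 fold change of 4.41 ± 0.42 (edgeR adjusted p = 1.94e-05). It was followed by Slc13a4, a sulfate transporter, at 1.43 ± 0.26, and Slc2a12, a glucose transporter, at 1.28 ± 0.21. Slc31a1, the copper importer, lay between 23.7 and 43.8 CPM in the 7 and between 17.9 and 25.5 CPM in the 13, a log2 fold change of 0.66 ± 0.10 at a level that all libraries shared in part.

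Secreted proteins and carriers held the most calls of any list, 10 higher of 20 and none lower, with 18 estimates above 0 and a median of 1.21. Enpp2 (chr15:54838901-54952892, minus strand) encodes autotaxin, the secreted enzyme that makes lysophosphatidic acid. It was at 1260, 1410, 1050, 400, 1300, 253 and 1110 CPM in the 7 libraries in the order given for Folr1, and at 136 to 277 CPM in the 13. The 6 libraries other than susceptible male library 2 stood above the 13, and the log2 fold change was 2.15 ± 0.24 (edgeR adjusted p = 6.29e-05). Kl, the klotho protein, ranged from 13.1 to 116 CPM against 4.31 to 12.1 CPM without overlap, a log2 fold change of 3.17 ± 0.33. F5, coagulation factor V, rose by 3.95 ± 0.45, also without overlap. Sostdc1, a secreted antagonist of bone morphogenetic proteins, rose by 2.38 ± 0.26, and Ecrg4 (listed as 1500015O10Rik), the precursor of the secreted peptide augurin, by 3.41 ± 0.34. Igfbp2, a binding protein of insulin-like growth factors, was higher by 1.30 ± 0.22, although 2 of its 7 values overlapped the 13. Igf2 itself was at 0.725 to 4.98 CPM against 0.496 to 2.10 CPM, and its log2 fold change of 1.12 ± 0.29 did not pass (edgeR adjusted p = 0.0941). It passed without susceptible female library 1 (adjusted p = 0.0268) and without susceptible male library 2 (adjusted p = 0.035).

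Genes of retinoid and thyroid hormone handling other than Ttr, 13 in all, gave 1 higher call, with 8 estimates above 0 and a median of 0.07. That gene was Rdh5, a retinol dehydrogenase, with a log2 fold change of 1.30 ± 0.21. Among 14 receptors tested, 1 was higher, again with 8 estimates above 0 and a median of 0.07. It was Ace, the angiotensin converting enzyme counted among them as a membrane protein of the epithelium, at 1.31 ± 0.26 (edgeR adjusted p = 0.0197). Ace lost its call without any of 3 libraries, male control 5 (adjusted p = 0.125), susceptible female 3 (adjusted p = 0.076) or susceptible male 5 (adjusted p = 0.06). Prlr, the prolactin receptor, was at 26.7 to 72 CPM in the 7 libraries and at 4.78 to 51.9 CPM in the 13, and its log2 fold change of 0.89 ± 0.38 did not pass (adjusted p = 0.353). The medians of these lists lay near the median of all genes.

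Of 17 genes of tight junctions and the epithelial cytoskeleton, 5 were higher, none was lower, and 16 estimates were above 0, with a median of 0.61. Cldn2 (chrX:139800828-139811386, plus strand), the cation-permeable claudin of leaky epithelia, ranged from 0.923 to 18 CPM against 0.168 to 0.813 CPM without overlap, a log2 fold change of 4.47 ± 0.41 (edgeR adjusted p = 1.76e-05). Cldn1, another claudin, rose by 2.29 ± 0.28 and Tjp3, a scaffold of the tight junction, by 1.89 ± 0.28. Krt18, a keratin of simple epithelia, rose by 2.49 ± 0.34.

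Of 14 transcription factors tested, 4 were higher and none lower, with 12 estimates above 0 and a median of 0.42. Otx2, the homeodomain factor needed for the choroid plexus to form, was at 14.2, 13.5, 15.7, 15.7, 25.3, 3.89 and 16.7 CPM in the 7 libraries and at 1.88 to 9 CPM in the 13, with a log2 fold change of 1.46 ± 0.28 (edgeR adjusted p = 0.0141). Its call was lost without male control library 5 (adjusted p = 0.0879) or susceptible male library 5 (adjusted p = 0.0687). Msx1, a homeodomain factor of dorsal midline tissue, rose by 1.93 ± 0.22, Gmnc, a regulator of multiciliated cells, by 2.71 ± 0.34, and Id3, an inhibitor of helix-loop-helix factors, by 0.47 ± 0.10. Id3 lost its call without any 1 of 4 libraries, female control 2, male control 5, susceptible female 3 and susceptible male 4, with adjusted p up to 0.142. Lmx1a, a factor of the roof plate from which the tissue arises, did not pass at 2.19 ± 0.71 (adjusted p = 0.213). Its highest value, 3.19 CPM, was in female control library 1, which held 22.1 CPM of Ttr, and without that library the log2 fold change was 3.49 (adjusted p = 0.00247). Foxj1, the master factor of motile cilia, was at 9.25 to 26.6 CPM against 6.92 to 24.2 CPM and did not pass at 0.47 ± 0.20 (adjusted p = 0.353).

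The list of other epithelial markers gave 9 higher of 19, none lower, 15 estimates above 0 and a median of 0.68. Tmem72, a membrane protein abundant in the choroid plexus, ranged from 1.91 to 33.8 CPM against 0.273 to 1.30 CPM, a log2 fold change of 4.57 ± 0.46. Wdr86 rose by 3.74 ± 0.38, Steap1 by 2.89 ± 0.33, and Rbm47, an RNA-binding protein of epithelia, by 2.27 ± 0.26.

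Otx2 and Msx1 were among the higher factors, so the 250 bases before the annotated start were searched for their core motifs and for that of Foxj1 on both strands. RefSeq sequences of GRCm38.p6 covered 96 promoters of 72 of the 90 higher genes. TAATCC, the core of OTX2, stood in 8.33% of these and in 6.25% of all 32851 promoters, TAATTG, the core of MSX1, in 8.33% and 7.17%, and TGTTTAC, a forkhead motif used here for FOXJ1, in 1.04% and 3.17%. The first pair share their opening TAAT and no match is counted under both. These are counts of letters and show no binding. In the sequences below, any of the 3 motifs is in capitals. The windows of 4 genes that were higher in the 7 libraries are shown as examples, 5′ to 3′ on the strand of the gene. They lie at chr1:87394730-87394979 (minus strand) for Kcnj13, chr5:150952357-150952606 (plus) for Kl, chrX:139800558-139800807 (plus) for Cldn2 and chr16:92292139-92292388 (plus) for Kcne2. Of the windows shown, only that of Kcnj13 holds a match, 1 of MSX1. The RefSeq starts of the 4 lie at or upstream of the annotated gene, as do some not shown, such as those of F5 and Prr32. For Cldn2, the bases after that start were found in no annotated transcript of the gene. Kcne2 has a second window inside the gene, at chr16:92295366-92295615, which is not shown.
Kcnj13: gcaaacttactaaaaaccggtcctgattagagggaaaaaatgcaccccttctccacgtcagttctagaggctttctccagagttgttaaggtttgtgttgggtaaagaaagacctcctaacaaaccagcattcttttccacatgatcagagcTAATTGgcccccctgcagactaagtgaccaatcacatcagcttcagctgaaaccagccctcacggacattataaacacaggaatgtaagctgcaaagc
Kl: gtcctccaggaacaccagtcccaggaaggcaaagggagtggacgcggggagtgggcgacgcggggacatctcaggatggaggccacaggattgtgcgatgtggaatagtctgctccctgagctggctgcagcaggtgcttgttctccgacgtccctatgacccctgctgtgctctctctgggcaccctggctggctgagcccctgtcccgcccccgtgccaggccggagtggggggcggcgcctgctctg
Cldn2: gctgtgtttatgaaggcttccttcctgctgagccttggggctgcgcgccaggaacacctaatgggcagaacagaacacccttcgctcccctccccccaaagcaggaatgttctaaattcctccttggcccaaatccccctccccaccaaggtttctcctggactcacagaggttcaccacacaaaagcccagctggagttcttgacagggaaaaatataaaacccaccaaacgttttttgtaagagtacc
Kcne2: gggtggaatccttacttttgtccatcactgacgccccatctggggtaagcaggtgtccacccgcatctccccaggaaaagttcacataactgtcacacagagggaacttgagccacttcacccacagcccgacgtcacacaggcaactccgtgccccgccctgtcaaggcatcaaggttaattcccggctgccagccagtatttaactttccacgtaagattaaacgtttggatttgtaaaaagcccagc

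Within the 7 libraries, the level of each gene relative to Ttr showed how closely it followed. Folr1 counts were 0.855% to 1.04% of Ttr counts in the 6 libraries other than susceptible male 2, a 1.22-fold range while Ttr itself ranged from 551 to 2005 CPM. In susceptible male library 2 they were 0.597%. Kcnj13 kept to 0.378% to 0.48% in the 6, and Enpp2 to 61.1% to 78%, against 176% in susceptible male library 2. Slc4a5 lay at 0.769% to 1.38%, Kl at 4.16% to 6.33%, Kcne2 at 0.537% to 1.04% and Aqp1 at 0.396% to 1.07%. Over the 6 libraries the ratio to Ttr ranged 1.28-fold for Enpp2, 2.89-fold for Clic6, 3.12-fold for F5, 4.13-fold for Otx2 and 7.86-fold for Foxj1. By the SD of the log2 ratio to Ttr over the 7 libraries, the closest of the higher genes with at least 1 CPM on average were, in order, Kcnj13, Folr1, Slc4a5, Kl, Best3, Ecrg4, Krt18, A2m, Kcne2 and Col4a4, with an SD of 0.15 for Kcnj13, 0.26 for Folr1 and 0.41 for Col4a4. The order depends on how low values are treated. With 0.5 CPM added to both genes before the ratio, an alternative chosen after seeing the data, Folr1 stood first at 0.09 and Kcnj13 had 0.34, 7 of the 10 were shared, and Cldn2, Tmem72 and Mfrp stood in place of Best3, Krt18 and Col4a4. These percentages are not scaled by gene length and compare libraries, not genes.

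**Figure D3:**
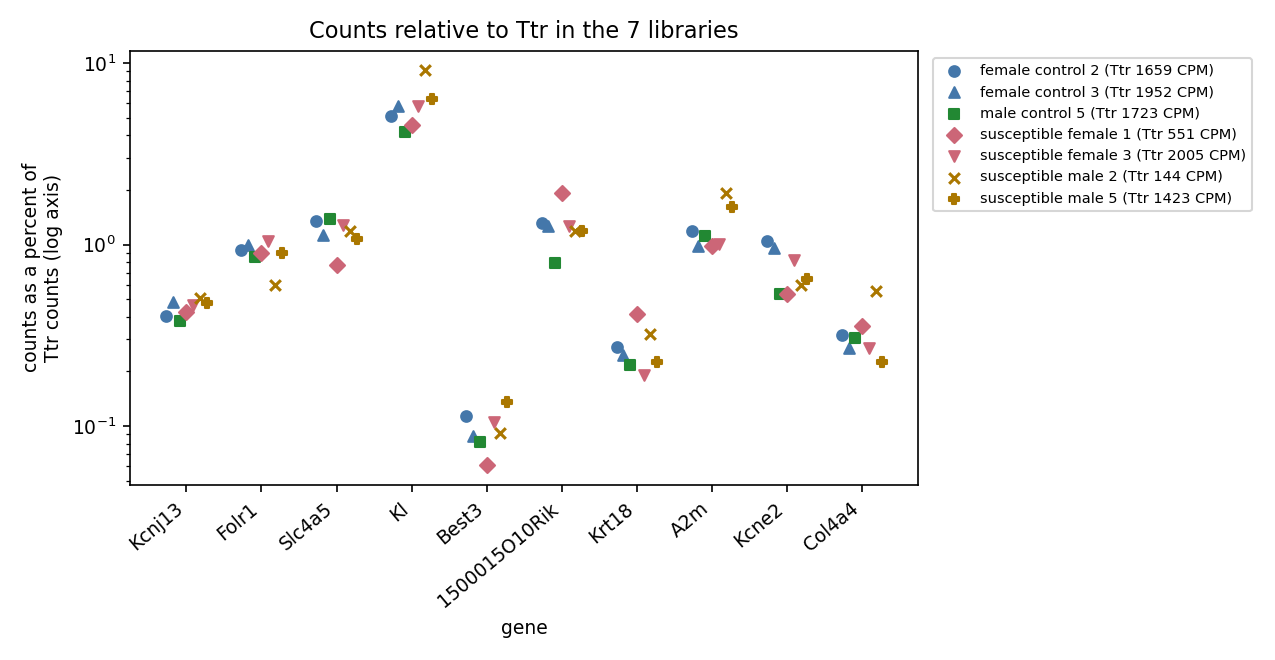
Counts of the 10 higher genes with the smallest SD of the log2 ratio to Ttr, with nothing added to the values, as a percent of Ttr counts in the same library on a log axis, with 1 symbol for each of the 7 libraries over 100 CPM of Ttr. Folr1 keeps to 0.855% to 1.04% in the 6 libraries other than susceptible male 2, and Ecrg4 appears under its listed name, 1500015O10Rik.

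The level of Ttr was also used as a number in place of the split at 100 CPM. Per doubling of Ttr, 164 of 14883 genes, or 1.1%, rose and 26, or 0.175%, fell (edgeR, group as covariate, adjusted p below 0.05). Without susceptible female library 3, 102 rose, and with 1 library left out in turn between 6 and 52 fell. Of the 90 genes higher by the split, 87 also rose per doubling, which is 96.7% of the split's calls and 53% of the 164. A slope of 1 on the log2 scale means a change in proportion to Ttr. The slopes were 0.89 for Slc4a5, 0.76 for Folr1, Cldn2 and Tmem72, 0.71 for Kcne2, 0.53 for Kl, 0.36 for Enpp2, 0.25 for Otx2 and 0.17 for Clic6. Igf2 rose by this fit, with a slope of 0.22 (adjusted p = 0.00367). In the choroid plexus lists, 50 genes rose and none fell, and in the lists of other tissues 3 rose, Dcn and Ptgds of the meninges and Chrnb4 of the habenula.

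**Figure D4:**
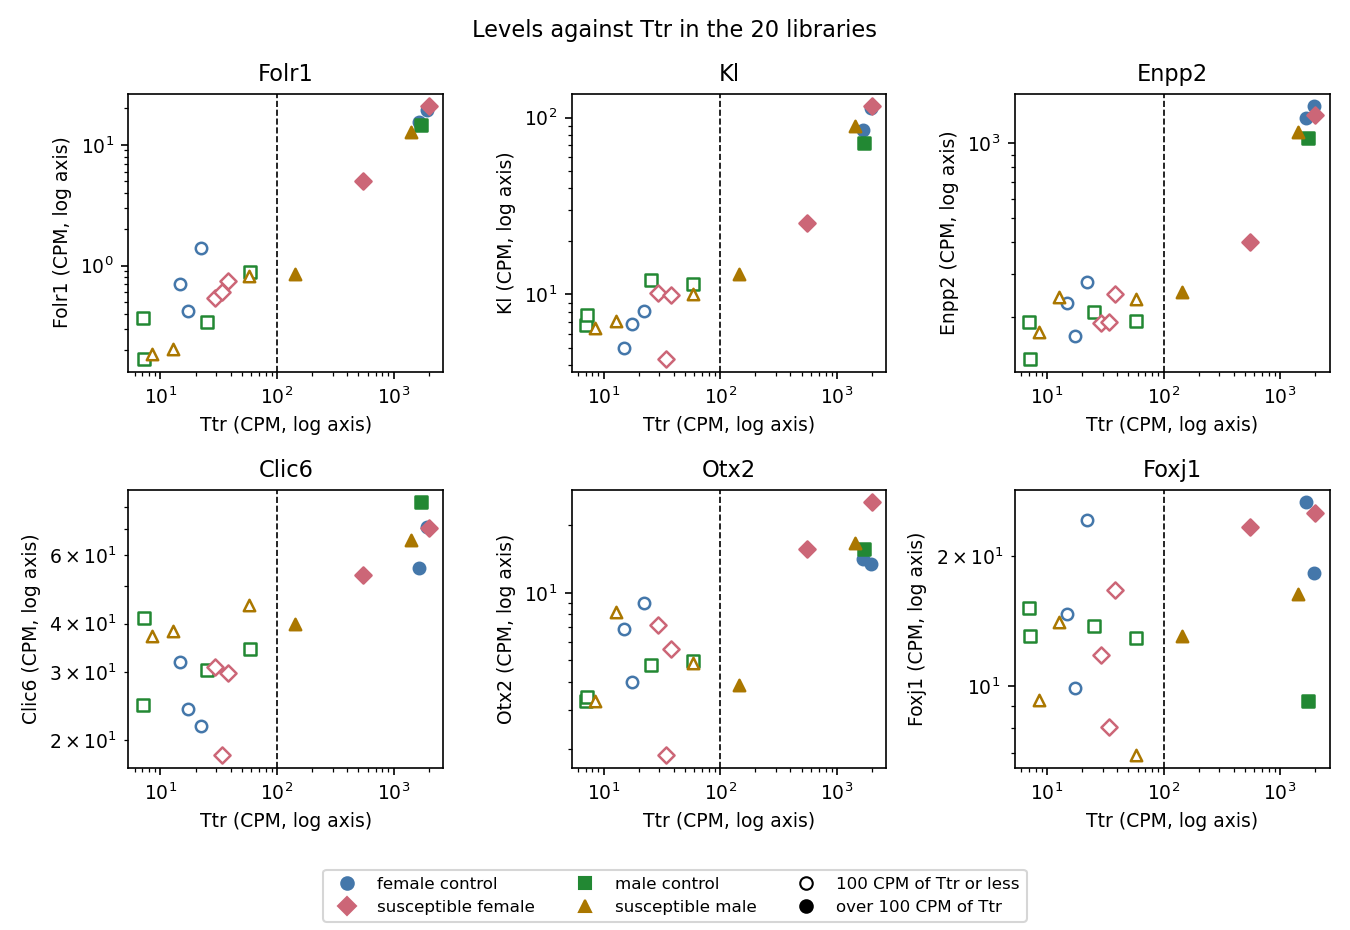
CPM of 6 genes against CPM of Ttr in the 20 libraries, both on log axes, with symbols by group, filled over 100 CPM of Ttr (dashed line). Folr1, Kl and Enpp2 climb with Ttr above the dashed line. Kl, Enpp2, Clic6 and Otx2 start from a level present in the other 13 libraries (4.31 to 12.1, 136 to 277, 18.3 to 44.7 and 1.88 to 9 CPM). Foxj1 overlaps across the range (9.25 to 26.6 CPM against 6.92 to 24.2 CPM).

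Of the 49 higher genes outside the lists, 5 were named by the rule for the largest or the closest. Mfrp, a frizzled-related membrane protein, rose by 4.12 ± 0.45 on the log2 scale, but it overlaps C1qtnf5 in the annotation and the split of their reads is uncertain. Prr32 rose by 3.30 ± 0.43. Best3, of the bestrophin family of anion channels, rose by 2.11 ± 0.38 and lay at 0.132 to 2.11 CPM in the 7 libraries against 0.0673 to 0.522 CPM, so the groups overlapped. In susceptible male library 2 it had 2 counts. Col4a4, a chain of type IV collagen, rose by 1.54 ± 0.27 and lay at 0.791 to 5.36 CPM against 0.83 to 2.5 CPM, again with overlap. It lost its call without male control library 5 (edgeR adjusted p = 0.0575). A2m, the protease inhibitor alpha-2-macroglobulin, rose by 1.81 ± 0.39 (edgeR adjusted p = 0.0379). Female control library 1, one of the 13, held 21.4 CPM of A2m, more than 6 of the 7 libraries. The A2m call was lost without any 1 of 15 libraries, with adjusted p up to 0.146.

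The 15 genes that were lower in the 7 libraries changed far less than most that rose, and none stood in any list. The 8 largest changes were Lama3, a laminin chain, at -0.60 ± 0.11 (edgeR adjusted p = 0.00584), Clcn1, a chloride channel, at -0.49 ± 0.11, Has3, a hyaluronan synthase, at -0.49 ± 0.10, Fndc1 at -0.46 ± 0.10, Gabrg3, a GABA-A receptor subunit, at -0.40 ± 0.08, Syn3, a synapsin, at -0.39 ± 0.06, Csmd2 at -0.38 ± 0.07 and Cntnap5a at -0.35 ± 0.08. Syn3 overlaps Timp3 in the annotation and its reads are uncertain. Lama3 lay at 5.92 to 9.83 CPM in the 7 libraries and at 8.61 to 14.6 CPM in the 13, and without susceptible male library 2 its groups did not overlap. Gabrg3 lay at 44.5 to 67.2 CPM against 60.3 to 80.5 CPM, so the groups overlapped. Lama3, Syn3 and Csmd2 kept their call without each library in turn, and the other 5 lost it without at least 1. Clcn1 lost it without 7 libraries, Has3 without 8, Fndc1 without 12, Gabrg3 without 4 and Cntnap5a without 13. The number of lower genes was 30 without female control library 1, 9 without female control library 3 or 5, 8 without susceptible female library 3 or susceptible male library 5, 45 without susceptible female library 4 and 25 without susceptible male library 2.

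Traces of the same genes were looked for inside the 13 libraries, where Ttr ran from 7.05 to 58.2 CPM. No gene of 14895 passed in either direction by edgeR (smallest adjusted p = 0.828), and 518 had an unadjusted p below 0.05. Of the 90 higher genes, 77 could be tested there, 57 of these had a slope above 0, and their median slope was 0.05, beside 0 for all genes. Over all genes, 7516 of 14895 had a slope above 0. Folr1 had a slope of 0.67 ± 0.17, Slc4a5 of 0.81 ± 0.27, Kcne2 of 0.56 ± 0.25 and Slc13a4 of 0.45 ± 0.11, each with an adjusted p of 1. Enpp2 had 0.12 ± 0.06 and Clic6 0.03 ± 0.08. Some higher genes had slopes below 0, among them Gmnc at -0.16 ± 0.23, Cldn1 at -0.14 ± 0.11 and Slc2a12 at -0.08 ± 0.11. In the 13, Folr1 lay at 0.168 to 1.39 CPM and Slc4a5 at 0 to 1.07 CPM, so their slopes rest on low counts.

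No gene of the 13 lists of other cell types and regions passed the test by the split. Single markers given as examples here were chosen after their values were seen. Of 33 ependymal and motile cilia genes tested, none passed, 32 estimates were above 0 and the median was 0.33, and their summed level was 101 to 251 CPM (median 204) in the 7 libraries and 68.9 to 297 CPM (median 141) in the 13. The ependymal marker Ccdc153 was at 0.893 CPM in male control library 5 and at 14.6 CPM in susceptible female library 1, although the first held 1723 and the second 551 CPM of Ttr. Of 23 meningeal and fibroblast genes none passed, 20 estimates were above 0 and the median was 0.27. Dcn, decorin of fibroblasts, was at 8.11 to 16.3 CPM against 6.99 to 11.6 CPM. Endothelial genes (24, median -0.03), microglial genes (18, median -0.10), astrocyte genes (20, median 0.04) and oligodendrocyte genes (22, median 0.05) gave no call. Red cell genes (7, median -0.30) gave none either.

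Neuronal markers of neighbouring regions differed in position between the libraries. All 22 thalamic genes had estimates above 0, with a median of 0.98 and summed levels of 1280 to 4310 CPM (median 2800) in the 7 against 1120 to 3850 CPM (median 1450) in the 13, and none passed. All 25 striatal genes had estimates below 0, with a median of -0.39 and sums of 3170 to 9100 CPM (median 5740) against 1340 to 11600 CPM (median 6710), and none passed. Tcf7l2, a thalamic factor, was at 164, 105, 18.8, 16.7, 223, 21.7 and 181 CPM in the 7 libraries in the order given for Folr1, so 4 of the 7 were high and 3 lay below the median of the 13, 24.6 CPM. Other thalamic markers did not all place those 3 alike. In male control 5, susceptible female 1 and susceptible male 2, Prkcd was at 64.9, 135 and 41.2 CPM (median of the 13, 74.7 CPM). Rora was at 70.3, 38.5 and 50.2 CPM there (median 53.7 CPM) and Lef1 at 3.7, 2.76 and 2.77 CPM (median 4.95 CPM). Male control library 5 held 1723 CPM of Ttr with 18.8 CPM of Tcf7l2. Female control library 1 held 172 CPM of Tcf7l2 with 22.1 CPM of Ttr. With a score of striatal minus thalamic genes as a covariate, which is built from these same lists, the thalamic median was 0.22 and the striatal median turned to 0.18, and 84 genes were higher, 75 of them among the 90. Habenular genes had 10 of 13 estimates above 0 and a median of 0.75, hypothalamic peptides 7 of 14 and 0.01, cortical and hippocampal genes 11 of 20 and 0.03, and septal genes 5 of 20 and -0.23, without a call. No marker of these lists was at 0 in every library, and the part of the neighbouring tissues in the genes that rose was not tested.

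**Figure D5:**
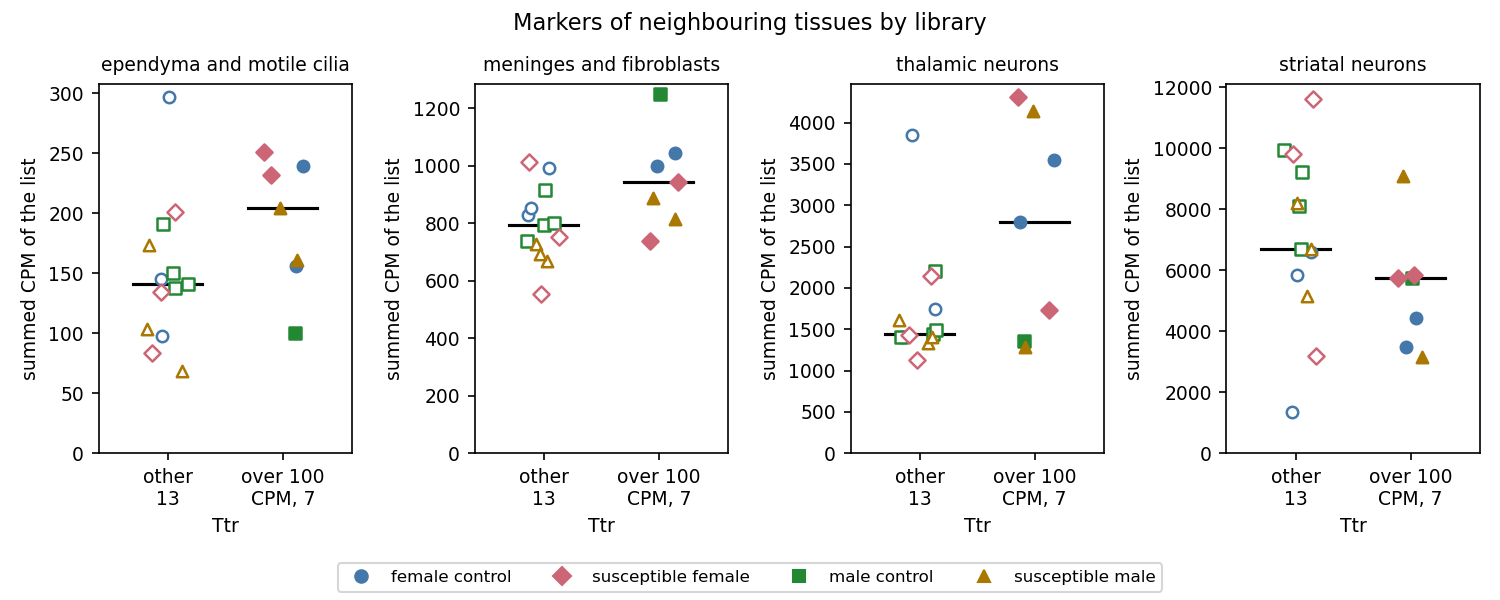
Summed CPM of 4 marker lists in each library, for the 13 other libraries and the 7 over 100 CPM of Ttr; symbols give the group, filled over 100 CPM, and bars are medians. The thalamic median is 2800 in the 7 and 1450 in the 13, the striatal median 5740 and 6710, and the groups overlap in all 4 panels.

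The difference made by the split was compared between the sexes with an interaction term, over the 4 female and 3 male libraries above 100 CPM. No gene of 14883 (0%) passed by edgeR (smallest adjusted p = 0.6), DESeq2 or limma voom, and 722 had an unadjusted p below 0.05 with edgeR. On simulated counts the edgeR test of the sex difference recovered 22% of 1.5-fold and 51% of 2-fold changes. For the split these were 67% and 86%, so the absence of calls does not show that the sexes are alike. The within-group differences in mean log2(CPM + 0.5) for Folr1 were 3.80 for female control, 4.07 for male control, 3.26 for susceptible female and 2.30 for susceptible male libraries, the last 2 groups holding the libraries with 551 and 144 CPM of Ttr. For Kl they were 3.81, 2.90, 2.75 and 2.09, and for Enpp2 2.60, 2.54, 1.79 and 1.30.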

How the data were processed

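Polyadenylated RNA of 20 BNST libraries was sequenced as paired reads on an Illumina HiSeq, per the labels' protocols. The authors deposited read counts per gene for each library, as raw whole numbers. HISAT2, featureCounts and mm10 are named in the submitters' processing notes. Versions, annotation and strand setting: not given in the sources used here. Reads that overlapping genes share cannot be told apart. Besides Mfrp and Syn3, other named genes overlap a neighbour in the annotation on either strand. Among them are Folr1 (Anapc15), Kcnj13 (Gigyf2), Tjp3 (Apba3), Slc31a1 (Cdc26), Rdh5 (Bloc1s1), Clcn1 (Fam131b) and Has3 (Chtf8). Of 19214 genes, 19206 were matched by identifier to GENCODE M21 on GRCm38, and the 8 unmatched held 0.0026% of counts. Groups came from the titles. No pair of libraries within a group agreed within sampling noise by chi-square.

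Counts were scaled by TMM, filtered with filterByExpr, which left 14883 genes beside Ttr, and fitted with edgeR 4.0.16 under R 4.3.3 (glmQLFit, robust, and glmQLFTest). The model held the group and either the split at 100 CPM of Ttr or log2 Ttr CPM, over all 20 libraries. Benjamini-Hochberg adjustment ran over all genes tested except Ttr. Standard errors came from dividing each log2 fold change by the root of its F statistic. The code was tested on simulated data. Genes named were 19 choroid plexus genes whatever their result, the 12 largest and 8 smallest calls (mean CPM of 1 or more, the same sign after dropping any library, no predicted models), up to 4 calls per list, and the 10 calls (mean CPM of 1 or more over the 7) closest to Ttr by the SD of the log2 CPM ratio with no offset. The ranking with 0.5 CPM added was an alternative chosen after seeing the data. The split, the members and the lists were chosen with earlier results of these data known. Alternatives were DESeq2 1.42.0 (Wald test, and its size factors), limma 3.58.1 voom, other count filters, Ttr thresholds, covariates and sets of libraries.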

Additional observations from a re-analysis of the deposited data

Results flagged for a closer look

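In each group of 4 to 10 libraries, the highest and the lowest library were checked for a gap to the nearest other library that was large beside the whole range of the group. Chance alone gives such a gap in about 1 in 20 groups, and 27 groups of values were checked. For Ttr within the labelled groups of 5, male control library 5 stood apart at 1723 CPM, susceptible female library 3 at 2005 CPM and susceptible male library 5 at 1423 CPM. The values of Ttr chose the 7 libraries, so these gaps are a description.

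Over the 7 libraries above 100 CPM of Ttr, susceptible male library 2 stood apart in its counts as a percent of Ttr counts for 10 genes. It was low for Folr1 at 0.597%. It was high for Clic6 at 27.8%, Msx1 at 1.65%, Sostdc1 at 3.17%, Prlr at 25.5%, Enpp2 at 176%, Igf2 at 0.505%, Igfbp2 at 11.2%, Foxj1 at 9.1% and Col4a4 at 0.551%. This library held the least Ttr of the 7, 144 CPM. All 10 percentages are taken over that same small count, so they are not separate observations. A gene with a level of its own where Ttr is low gives a higher percent there by arithmetic. In the 13 libraries Enpp2 was at 136 to 277 CPM and Clic6 at 18.3 to 44.7 CPM. For F5, susceptible female library 1 stood apart at 0.781%, below the other 6.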

How the results depend on the processing

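The count of higher genes, 90, was 189 by DESeq2's Wald test, 672 by limma voom, 266 without the 2 libraries between 100 and 1000 CPM of Ttr (chosen after seeing the data), 9 without the 5 libraries over 1 CPM of Pmch, 48 at a Ttr threshold of 50 CPM, and 144 at 200 and at 500 CPM. Thresholds of 200 and 500 CPM leave the same 6 libraries above, so they are the same split and not separate checks. The 90 genes were all called again by DESeq2, by voom and without the 2 middle libraries. The lower count, 15, was 72, 365, 52, 2, 1, 25 and 25 under the same settings. Genes rising per doubling of Ttr, 164, were 262 by DESeq2, 801 by voom, 50 without the Pmch libraries and 0 within the 13 libraries alone. Genes falling, 26, were 94, 372, 3 and 0 there, 45 without the middle libraries and 17 with the region score. Leaving out 1 library gave 71 to 144 higher, 8 to 45 lower, 102 to 211 rising and 6 to 52 falling. The falling count was 52 without susceptible female library 4, 44 without female control library 1, and between 6 and 17 without any 1 of 11 other libraries (female control 2 to 5, male control 3 and 4, susceptible female 2 and 3, susceptible male 3 to 5). The cause of these shifts was not tested, and the sets that leave some libraries out also hold fewer libraries. No count or gene named by the rule reversed its sign, but some list medians did, such as these: the striatal median of -0.39 was 0.18 with the region score, and the oligodendrocyte median of 0.05 was -0.12 without the Pmch libraries. Of 47 genes named by the rule besides Ttr, 6 kept their side of the threshold in every alternative run: Ecrg4, Cldn2, Folr1, Kcnj13, Slc4a5 and Wdr86. Of 35 named higher genes, 5 lost the call without at least 1 library, and of 8 named lower genes 5 did. The sex difference stayed at 0 calls in the alternatives run.

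Of 30 pairs of same-numbered libraries of different groups, 11 had a correlation of deviations above 0.1 (range -0.58 to 0.64). Of 20 libraries, 6 correlated best with a library of their own number. No chance level was computed for these values, so they do not settle whether libraries pair by number. With the number as a block, 79 genes were higher, 28 lower, 245 rising and 217 falling. Depth limits genes near 1 CPM, at 14.6 to 17.9 counts per library.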
